A study of Homo sapiens with 4 samples.

Results

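The genes described here encode 9 proteins that restrain TGFβ signalling: SMAD7, SMURF1, SMURF2, SKI, SKIL, TGIF1, TGIF2, PMEPA1 and LDLRAD4. They were chosen by name, from textbook knowledge of the pathway, out of the 20033 protein-coding genes of GENCODE release 44. Earlier results of these data were known when the choice was made. For each gene, the Smad binding sites that overlapped its annotated span widened by 10 kb on each side were collected, with the distance of each summit to the nearest annotated transcription start site of that gene. The rule gave 68 of the 104156 peaks in 4 peak lists.

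TGFβ-1 binds a pair of receptor kinases that phosphorylate Smad2 and Smad3. On DNA, complexes of these Smads with Smad4 recognise short Smad-binding elements such as CAGAC. Several target genes encode proteins that act back on the pathway, at the receptor, on the Smads themselves or on the promoters they occupy. SMAD7 and the SMURF ubiquitin ligases act on the receptor and on Smads, SKI, SKIL, TGIF1 and TGIF2 are transcriptional co-repressors bound by Smads, and PMEPA1 and LDLRAD4 are related membrane proteins that sequester Smad2 and Smad3.

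The cells were MDA-MB-231, a human triple-negative breast cancer line, with a bacterial artificial chromosome (BAC) that carries LAP-tagged Smad2 or LAP-tagged Smad3 beside the endogenous genes. The LAP tag contains GFP, and all 4 libraries come from ChIP with an anti-GFP antibody. The cells were kept as Geneticin-selected populations sorted for GFP, and each tagged population was either left untreated or given 10 ng/mL TGFβ-1 for 2 h. Each of the 4 conditions has 1 library, so that differences between them have no replicate check and no p-value is given. Per the labels, the untreated lists hold 11266 peaks for LAP-Smad2 and 3511 for LAP-Smad3, and the treated lists hold 26828 and 62551.

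The depth of each library is unknown, since read totals are not in the lists, and the number of peaks called grows with depth. The untreated libraries carry labels that name the opposite Smad to the one in their deposited names. The BAC adds copies of the tagged gene and with them a local excess of peaks, which serves as a check of the labels. At SMAD2, 2 peaks were found under the label LAP-Smad2 untreated and 14 under the label LAP-Smad3 untreated, against 18 for LAP-Smad2 and 1 for LAP-Smad3 after TGFβ-1. At SMAD3, the counts in the same order were 0, 1, 1 and 52. The untreated pair thus goes against its labels at SMAD2. These libraries are named by their labels, and no direction for either Smad is drawn from them. SMAD7 lies 989 kb from SMAD2 on chromosome 18.

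The following sequences are shown because they are the sites on which the binding of both Smads met, or the clearest examples of each kind of site described below. Each is a stretch of up to 200 bases on the summit, read from hg38 on the plus strand, 5′ to 3′. Capitals mark the Smad-binding element CAGAC, or GTCTG where it lies on the minus strand, and the AP-1 element TGANTCA.
PMEPA1, intronic site of both Smads (window on the Smad2 summit), chr20:57692521-57692720: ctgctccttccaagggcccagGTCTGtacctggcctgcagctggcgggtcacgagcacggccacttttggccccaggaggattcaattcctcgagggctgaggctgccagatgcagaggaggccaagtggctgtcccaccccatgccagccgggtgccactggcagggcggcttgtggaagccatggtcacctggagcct
LDLRAD4, repeat site of both Smads (window on the Smad3 summit), chr18:13288571-13288770: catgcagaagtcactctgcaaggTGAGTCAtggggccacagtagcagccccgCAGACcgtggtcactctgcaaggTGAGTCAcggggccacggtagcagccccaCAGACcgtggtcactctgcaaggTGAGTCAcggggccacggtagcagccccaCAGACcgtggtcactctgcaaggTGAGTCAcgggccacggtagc
LDLRAD4, second site of both Smads (window on the Smad2 summit), chr18:13493886-13494085: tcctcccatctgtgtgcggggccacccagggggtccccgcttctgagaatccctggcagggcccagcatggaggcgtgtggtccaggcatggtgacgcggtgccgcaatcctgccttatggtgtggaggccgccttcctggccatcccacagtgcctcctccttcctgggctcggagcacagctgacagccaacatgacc
PMEPA1, upstream Smad3 site, chr20:57714208-57714407: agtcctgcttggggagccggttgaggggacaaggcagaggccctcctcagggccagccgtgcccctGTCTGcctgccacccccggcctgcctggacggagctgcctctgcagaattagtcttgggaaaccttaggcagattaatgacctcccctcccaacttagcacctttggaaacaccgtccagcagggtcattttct
SMAD7, Smad3 site at an alternative start, chr18:48949416-48949615: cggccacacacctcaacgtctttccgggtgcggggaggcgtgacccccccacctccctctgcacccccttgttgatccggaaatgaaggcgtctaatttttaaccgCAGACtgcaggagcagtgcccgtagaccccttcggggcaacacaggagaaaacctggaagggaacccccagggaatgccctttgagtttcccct
SKIL, intronic Smad2 site at a start, chr3:170357821-170358020: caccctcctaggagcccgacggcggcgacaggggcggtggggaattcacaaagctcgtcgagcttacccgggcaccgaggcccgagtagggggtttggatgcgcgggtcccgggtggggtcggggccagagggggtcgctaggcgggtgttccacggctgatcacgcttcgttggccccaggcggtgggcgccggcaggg
TGIF1, intronic part of the Smad2 site at a start, chr18:3450506-3450682: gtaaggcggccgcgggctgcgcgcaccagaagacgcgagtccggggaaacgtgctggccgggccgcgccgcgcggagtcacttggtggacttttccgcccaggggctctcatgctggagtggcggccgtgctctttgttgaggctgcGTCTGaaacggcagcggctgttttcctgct

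After TGFβ-1, the 9 genes held 15 peaks of LAP-Smad2 and 51 of LAP-Smad3. In the LAP-Smad2 list, 6 of the 9 genes (66.7%) had at least 1 peak, against 55.9% of all protein-coding genes. In the LAP-Smad3 list, 8 of the 9 (88.9%) had at least 1 peak, against 74.3%. The genes are longer than usual, with a median span of 63.1 kb beside 27.5 kb for all protein-coding genes. Among the 11119 protein-coding genes whose span lies in the same range, 20.5 to 435 kb, the shares were 63.1% and 82.1%. Having a peak was therefore close to the background for genes of this size, in both lists. Before treatment, 1 gene, LDLRAD4, had a peak in each library, where 22.0% (labelled LAP-Smad2 untreated) and 9.14% (labelled LAP-Smad3 untreated) of protein-coding genes had one.

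**Figure D1:**
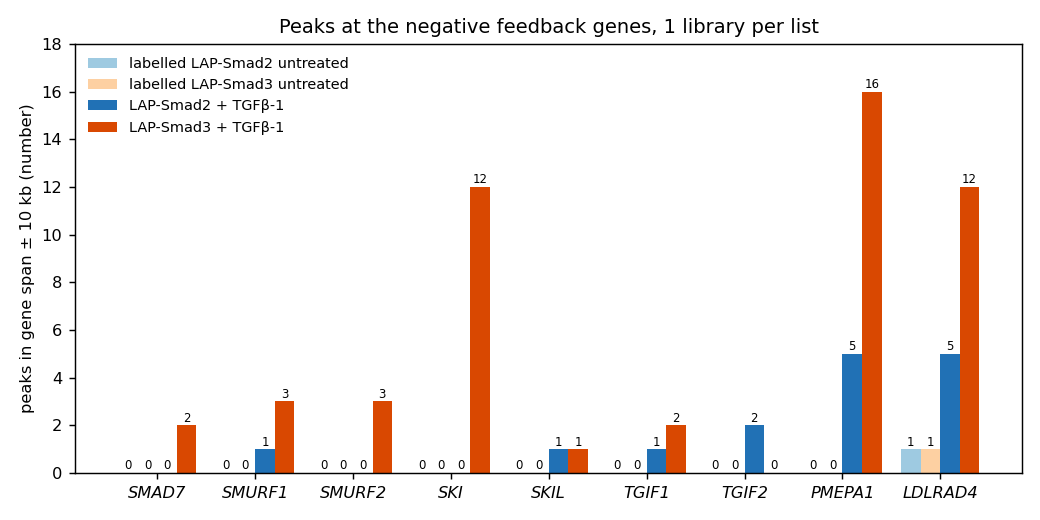
Number of peaks overlapping the span of each gene ± 10 kb (y axis), for the 9 genes (x axis), with 1 bar for each of the 4 lists and 1 library per list. PMEPA1, SKI and LDLRAD4 carry 40 of the 51 LAP-Smad3 peaks, and TGIF2 is the gene with LAP-Smad2 peaks alone.

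The peaks were spread unevenly. LDLRAD4, PMEPA1 and SKI together held 40 of the 51 LAP-Smad3 peaks (78.4%), and LDLRAD4 and PMEPA1 held 10 of the 15 LAP-Smad2 peaks (66.7%). Within 10 kb, SMAD7, SKI and SMURF2 had peaks of LAP-Smad3 alone, a pattern shared by 4491 protein-coding genes. TGIF2 had peaks of LAP-Smad2 alone, as had 1391 protein-coding genes. With spans widened by 50 kb, SMAD7 and SKI gained 2 and 1 LAP-Smad2 peaks and TGIF2 gained 5 LAP-Smad3 peaks, which leaves SMURF2 as the gene with peaks of a single Smad. The remaining 5 genes (SKIL, SMURF1, PMEPA1, TGIF1 and LDLRAD4) had peaks of both treated lists, which is 55.6% of the 9 beside 47.0% of protein-coding genes. Overlapping peaks of the tagged Smads (1 bp or more in common) were found at PMEPA1 and LDLRAD4, or 22.2% of the genes, against 16.8% of protein-coding genes and 20.8% of those with a span in the same range. Among genes with peaks of both treated lists, the share with such a site was 2 of 5 (40.0%) for the genes described here and 35.7% for all protein-coding genes, so that this too was close to the background.

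SMAD7 encodes the inhibitory Smad that occupies the activated type I receptor and brings the SMURF ligases to it. Its window (chr18:48919853-48950965 widened by 10 kb, minus strand) had 2 LAP-Smad3 peaks and none in the other 3 lists. The stronger one (chr18:48949357-48949583) had a fold enrichment over the local background of 6.88, at the 92.4th percentile of its list, with a −log10 q of 7.26. Its summit lay in an intron, 1449 bp downstream of the start of the MANE Select transcript, the standard reference transcript, and 183 bp upstream of an alternative start. The printed window of this site has 1 CAGAC near its centre. The other peak (chr18:48925704-48925992, fold 4.24, 25.9th percentile) lay in an intron 4354 bp from a start, and its 200 bp window has 68524 near-identical copies elsewhere in hg38, where a copy matches at least 90% of its bases. How reads in such sequence were placed was not tested. The closest LAP-Smad2 summit to a SMAD7 peak was 16.5 kb away, outside the window. The window contains the palindromic Smad-binding element GTCTAGAC at chr18:48952218-48952225, 1253 bp upstream of the MANE Select start, and the nearest peak of any list lay 2635 bp from it.

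SMURF1 and SMURF2 encode ubiquitin ligases that mark the receptor and Smads for degradation. SMURF1 (chromosome 7) had 1 LAP-Smad2 peak (chr7:99143592-99143968), in an untranslated exon 174 bp from a start, with a fold of 3.71 at the 35.0th percentile. Its 3 LAP-Smad3 peaks lay far from any start of SMURF1, by 27885, 52619 and 53517 bp. The 2 farthest are in an untranslated exon near the 3′ end of the gene and are nearer to the start of the neighbouring gene TRRAP, at 1787 and 2685 bp. The one with the highest −log10 q, 4.93, had a fold of 5.52, at the 74.2nd percentile. SMURF2 (chromosome 17) had 3 LAP-Smad3 peaks and no LAP-Smad2 peak. The strongest (chr17:64534214-64534466, fold 6.28, 86.3rd percentile) lay past the end of SMURF2 and 361 bp from the start of CEP95. The peak closest to SMURF2's own starts (chr17:64661171-64661496) was 437 bp upstream of one, with a fold of 4.95 at the 49.2nd percentile, and its window has 2 copies elsewhere. For the SMURF genes, 3 of the 6 LAP-Smad3 peaks were therefore nearer to another protein-coding gene.

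SKI and SKIL encode related co-repressors that bind Smad complexes on DNA and recruit histone deacetylases. SKI (chromosome 1) had 12 LAP-Smad3 peaks, with 2 upstream of the gene, 8 in introns and 2 downstream, and no LAP-Smad2 peak. The nearest LAP-Smad2 peak to its span was 46.3 kb away. Only 1 of the 12 summits (chr1:2301273-2301530, fold 4.97) was within 3 kb of a start, 2224 bp upstream of an alternative one. The peaks with the highest −log10 q, 7.63 and 7.30, were an intronic one (chr1:2281130-2281630, fold 7.17, 93.5th percentile) and one past the end of the gene (chr1:2311639-2312016, fold 6.70, 91.2nd percentile). The former, with a neighbour at chr1:2281919-2282590, sits in a tandem repeat. Shifted by 87 and 86 bases, the windows match themselves at 99.1% and 100% of bases, and they have 34 and 33 near-identical copies, all within 10 kb. In all, 4 of the 12 SKI windows had another copy in hg38.

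SKIL (chromosome 3) had 1 peak of each Smad. The LAP-Smad2 peak (chr3:170357792-170358023, fold 4.27, 65.2nd percentile) lay in an intron 187 bp past a start, and 72.0% of its printed window is G or C, with no CAGAC. The LAP-Smad3 peak (chr3:170382589-170382796, fold 3.58, 9.09th percentile) lay 24.8 kb away by summit, in an intron and 1442 bp from an alternative start. That peak was 25003 bp from the MANE Select start and 23095 bp from the nearest start of a protein-coding transcript. Much of its window resembles the window of the SMAD7 peak in repeated sequence, although no near-identical copy of the whole window was found. Each Smad thus had a peak within 3 kb of some annotated start of SKIL, at different starts, and the LAP-Smad3 one may lie in repeated sequence.

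TGIF1 and TGIF2 encode homeodomain proteins that displace co-activators from Smad complexes. TGIF1 (chromosome 18) had 1 LAP-Smad2 peak (chr18:3450508-3450738, fold 3.44, 20.7th percentile), in an intron 371 bp past a start. A LAP-Smad3 peak (chr18:3451460-3451999) in an untranslated exon stood 23 bp past another start, with a fold of 7.72 at the 96.0th percentile of its list and a −log10 q of 8.73. The summits of these neighbours are 1117 bp apart and the peaks do not touch. The other LAP-Smad3 peak at TGIF1, 7031 bp upstream, has a window with 29248 copies. TGIF2 (chromosome 20) had 2 LAP-Smad2 peaks, at 153 and 29 bp past starts (chr20:36573725-36574090 and chr20:36574575-36574819), with folds of 3.61 and 3.78 at the 30.4th and 38.4th percentiles. It was the gene with no LAP-Smad3 peak, and the nearest one was 25.2 kb from its span. The readthrough gene TGIF2-RAB5IF overlaps TGIF2, so these sites cannot be assigned to one of them.

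PMEPA1 encodes a membrane protein that binds Smad2 and Smad3 and keeps them from the receptor. It had 5 LAP-Smad2 and 16 LAP-Smad3 peaks on chromosome 20, at 6.01 and 19.2 peaks per 100 kb. The LAP-Smad3 density ranks 513th among the 20033 protein-coding genes, at the 97.4th percentile, and the LAP-Smad2 density ranks 1618th. In the 500 kb on either side, the densities were 2.40 and 8.50 peaks per 100 kb. The neighbourhood is thus itself dense in peaks, and the gene is denser than its neighbourhood. None of the 16 LAP-Smad3 windows or 5 LAP-Smad2 windows had a near-identical copy.

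The strongest member peak of the LAP-Smad3 list lay upstream of PMEPA1 (chr20:57714138-57714373), 2772 bp from an alternative start and 4293 bp from the MANE Select start. Its fold was 8.23, at the 97.5th percentile, with a −log10 q of 10.2. A LAP-Smad2 peak (chr20:57714798-57715117, fold 3.34) stood near it without overlap, with the summits 768 bp apart. The shared site lies in an intron, with its summits 791 bp (LAP-Smad2) and 827 bp (LAP-Smad3) upstream of an alternative start. There the LAP-Smad2 peak (chr20:57692457-57692737) had a fold of 4.32 at the 69.7th percentile and the highest −log10 q of the 15 LAP-Smad2 peaks, 7.47. The LAP-Smad3 peak (chr20:57692545-57692778) had a fold of 7.72 at the 96.0th percentile and a −log10 q of 8.73. The peaks share 193 bp and their summits are 36 bp apart. The printed window, on the LAP-Smad2 summit, holds 1 CAGAC, and the window on the LAP-Smad3 summit holds none. A further LAP-Smad3 peak (chr20:57693055-57693546, fold 4.60) was 1574 bp upstream of the same start. The other LAP-Smad3 peaks were mostly intronic, with 13 of the 16 in introns, and CAGAC was present in 11 of the 16 windows.

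LDLRAD4 encodes a relative of PMEPA1 with the same Smad-binding function, and is by far the longest of the 9 genes, at 435 kb with 35 annotated starts. It had 5 LAP-Smad2 and 12 LAP-Smad3 peaks on chromosome 18. Per 100 kb these are 1.10 and 2.64 peaks, near the medians over all protein-coding genes of 0.746 and 2.42. The LAP-Smad2 peak at a start (chr18:13217746-13218135, fold 3.61) had its summit 4 bp from it, in an untranslated exon, and 81.0% of its window is G or C. The LAP-Smad2 peak with the highest −log10 q, 5.17, was intronic, 13944 bp from a start (chr18:13232625-13232881, fold 4.29, 69.0th percentile). Of the LAP-Smad3 peaks, 2 besides the shared ones lay within 3 kb of a start. These were at 335 bp, in a coding exon (chr18:13621041-13621240, fold 4.97), and at 2058 bp upstream (chr18:13215390-13215614, fold 3.50), where the window has 54515 copies.

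Both Smads met at 2 intronic sites of LDLRAD4. The first had the highest −log10 q of the LAP-Smad3 peaks at this gene, 5.63. Its LAP-Smad2 peak (chr18:13288566-13288788, fold 3.80, at the 39.4th percentile) lies wholly inside its LAP-Smad3 peak (chr18:13288546-13288841, fold 6.07, 80.5th percentile), and the summits are 15 bp apart and 10.6 kb from a start. The sequence is a tandem repeat with a period of 52 bases. The printed window holds 4 TGANTCA and 3 CAGAC, and the window on the LAP-Smad2 summit holds 3 of each. At least 3 TGANTCA were found in 5 of the 26828 LAP-Smad2 windows and in 12 of the 62551 LAP-Smad3 windows. No near-identical copy of the whole window was found elsewhere. At the second site (chr18:13493853-13494080, fold 4.04 for LAP-Smad2, and chr18:13493950-13494193, fold 4.90 for LAP-Smad3), the peaks share 131 bp, the summits are 81 bp apart and 2754 and 2835 bp from a start, and neither window holds CAGAC or TGANTCA.

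LDLRAD4 was also the gene with untreated peaks. The library labelled LAP-Smad2 untreated had 1 intronic peak (chr18:13262463-13262695, fold 4.99, 26.3rd percentile), in a tandem repeat with a period of 60 bases and 5 local copies. The library labelled LAP-Smad3 untreated had 1 (chr18:13632222-13632421, fold 4.26, 67.5th percentile), also intronic, 9376 bp from a start. Neither overlaps a peak of a treated list, and no treated peak at the 9 genes overlaps an untreated one. How often treated and untreated peaks overlap over the whole lists was not computed, so this is not a result about these genes. The untreated lists are shorter, and these counts come from single libraries.

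**Figure D2:**
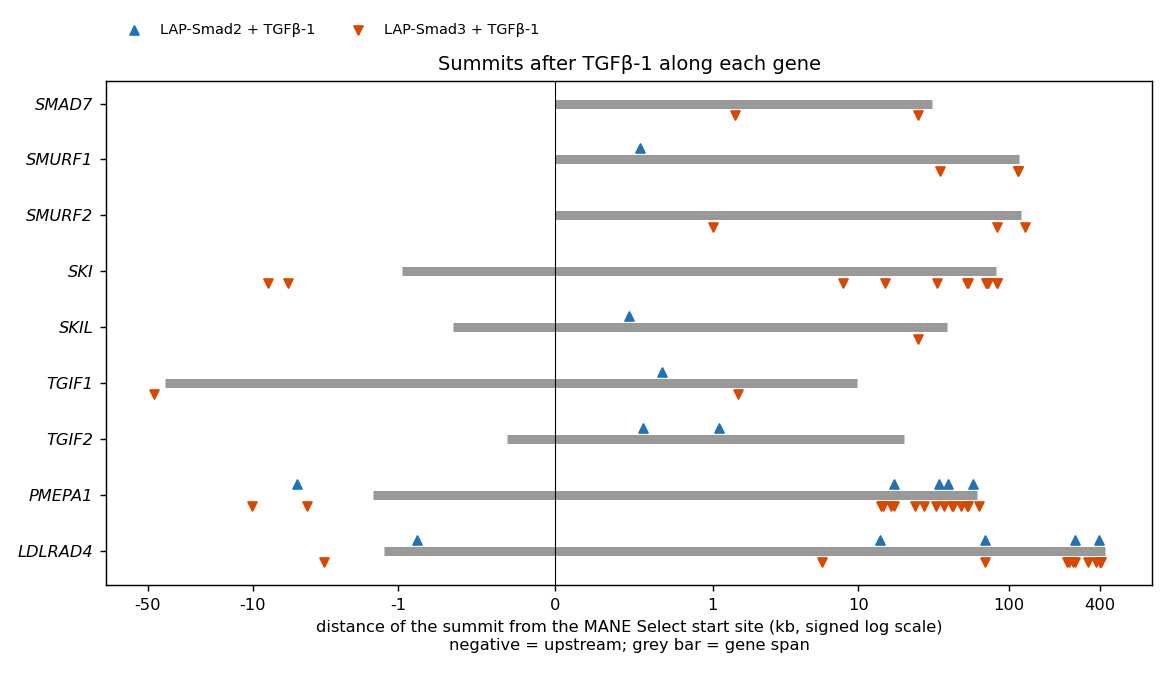
Position of each LAP-Smad2 (upward triangles) and LAP-Smad3 (downward triangles) summit after TGFβ-1, as the distance from the MANE Select start of each of the 9 genes in kb on a signed log scale (x axis). Grey bars are the gene spans; the SMURF1, SKIL, TGIF1 and TGIF2 LAP-Smad2 summits lie just downstream of the start, and most LAP-Smad3 summits lie deeper in the genes.

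Of the 15 LAP-Smad2 peaks, 8 (53.3%, 95% Wilson interval 30.1% to 75.2%) were within 3 kb of a start of their gene, at all 6 genes with a peak. Of the 51 LAP-Smad3 peaks, 11 (21.6%, 12.5% to 34.6%) were, at 7 genes (77.8% of the 9). By the same rule over the peaks of all protein-coding genes, 40.8% (LAP-Smad2) and 27.5% (LAP-Smad3) were within 3 kb of a start. These shares are over pairs of a gene and a peak, so that a peak in the windows of several genes counts for each. Both intervals contain these shares, and the contrast between the Smads at the 9 genes has the direction of that over all protein-coding genes. Over all protein-coding genes, 35.1% had a LAP-Smad2 summit and 39.6% a LAP-Smad3 summit within 3 kb of a start. These gene shares are not matched for span or number of starts, and the 9 genes are longer than usual, with up to 35 starts. The shares of genes are therefore not comparable as they stand. The median distance was 2754 bp for LAP-Smad2 and 6955 bp for LAP-Smad3, beside 5628 and 7778 bp over all protein-coding genes. Against the MANE Select start alone, 6 of the 15 LAP-Smad2 peaks and 3 of the 51 LAP-Smad3 peaks were within 3 kb, so most LAP-Smad3 peaks counted as near a start stood at alternative starts. By annotation, 36 of the 51 LAP-Smad3 summits and 10 of the 15 LAP-Smad2 summits were intronic, and the intronic share over the whole lists was not computed. Peaks at 1 gene share its sequence neighbourhood and are not independent, and no test was made of the difference in distance between the Smads.

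**Figure D3:**
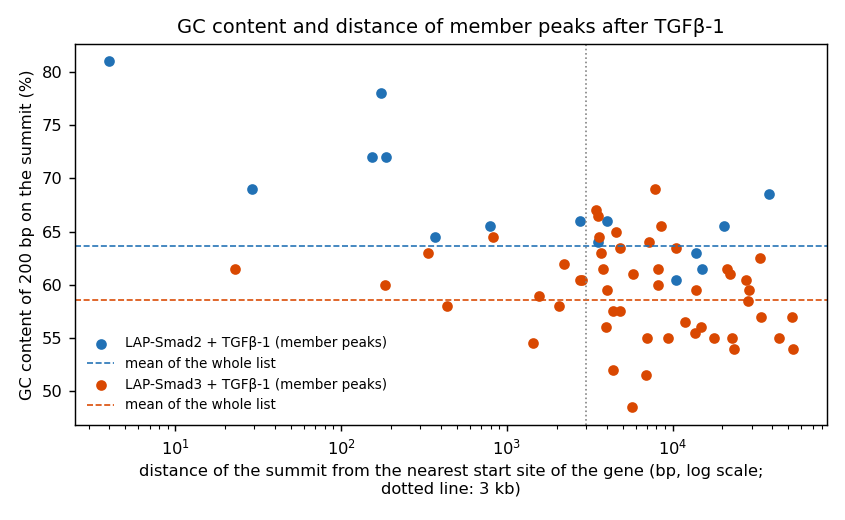
GC content of the 200 bp on each summit in percent (y axis) against the distance of the summit from the nearest start of its gene in bp on a log scale (x axis), for the 15 peaks of LAP-Smad2 and the 51 of LAP-Smad3 after TGFβ-1. Dashed lines are the means of the whole lists, 63.7% and 58.6%; the LAP-Smad2 sites within 3 kb of a start (dotted line) run from 64.5% to 81.0%, and the LAP-Smad3 sites there from 54.5% to 64.5%.

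The sites of the Smads also differed in base composition. Windows of LAP-Smad2 peaks had a mean GC content of 67.8% ± 5.82 (SD, n = 15 peaks), and the mean over their whole list was 63.7%. Windows of LAP-Smad3 peaks had 59.4% ± 4.31 (SD, n = 51 peaks), against 58.6% over their list. Within 3 kb of a start, the LAP-Smad2 windows had 71.0% ± 6.01 (SD, n = 8) and the LAP-Smad3 windows 60.1% ± 2.74 (SD, n = 11). These ranges meet at 64.5% and do not otherwise overlap. Farther away the values were 64.1% ± 2.76 (SD, n = 7) and 59.2% ± 4.66 (SD, n = 40). The SD is over peaks of 1 library, not over replicates. The means of the whole lists differ in the same direction, and their GC content near starts was not computed. The windows within 3 kb of a start also lay at unlike places. Of the 8 LAP-Smad2 windows 6 were within 3 kb of the MANE Select start, and of the 11 LAP-Smad3 windows 3 were.

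Motifs were counted on both strands of the 200 bp windows. CAGAC was found in 8 of the 15 LAP-Smad2 windows, or 53.3% (95% Wilson interval 30.1% to 75.2%), and in 35.3% of all windows of that list. In the LAP-Smad3 windows it was found in 24 of 51, or 47.1% (34.1% to 60.5%), against 34.4% of the list. Both intervals contain the share of the list. Among the genes, PMEPA1 had the element in 11 of 16 LAP-Smad3 windows and SKI in 3 of 12. The palindrome GTCTAGAC was in none of the 15 and 51 windows, which allows shares of up to 20.0% and 5.88%, and it is rare in the lists, with 12 and 35 windows. At the 9 genes hg38 has 14 such palindromes, and 0 lay inside a peak of any list. The share of these gene windows that peaks cover was not computed, so this count has no background and does not show that the palindromes are avoided. The GC-rich Smad element GGCGC was in 60.0% of the LAP-Smad2 windows (35.7% to 80.2%) and 57.7% of their list. It was in 27.5% of the LAP-Smad3 windows (17.1% to 40.9%), below the 43.4% of that list. GGCCG, which can share bases with GGCGC, was in 60.0% and 45.1%, against 57.6% and 35.8%. The E-box CANNTG was in 66.7% and 60.8%, against 51.9% and 55.9%, and the nuclear receptor half-site AGGTCA in 13.3% and 21.6%, against 14.4% and 26.9%. The half-site AGAACA was in none of the LAP-Smad2 windows, where 3.51% of the list had it, and in 1 of the LAP-Smad3 windows (1.96%), against 5.98%. TGANTCA was in 1 of 15 (6.67%) and 3 of 51 (5.88%) windows, against 1.37% and 2.70%. Of 16 such intervals, for 8 motifs in 2 lists, 1 left out the share of its list, that of GGCGC in the LAP-Smad3 windows. Wilson intervals cover counting error only, and a match describes the letters of the window and not a bound site.

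**Figure D4:**
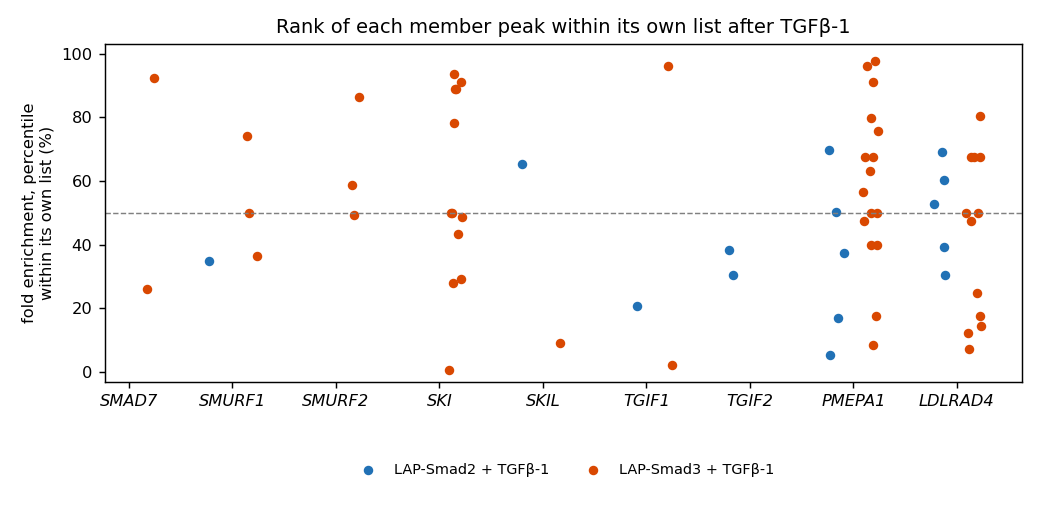
Percentile of each peak's fold enrichment within its own list after TGFβ-1 (y axis, %) for the 9 genes (x axis), 1 point per peak, with the peaks of the tagged Smads side by side. The dashed line is the median of a list; blue LAP-Smad2 points stop at 69.7, and 7 orange LAP-Smad3 points at SMAD7, SKI, PMEPA1 and TGIF1 are at or above the 90th percentile.

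By fold enrichment, sites at these genes were ordinary for their lists. Folds cannot be compared between lists, and each peak was therefore ranked within its own list. The LAP-Smad2 peaks had folds from 2.97 to 4.32 with a median of 3.78, beside 3.98 for the list, and a median percentile of 38.4. None of the 15 reached the 90th percentile. The LAP-Smad3 peaks had folds from 2.70 to 8.23 with a median of 4.97, equal to that of the list, and 7 of the 51 were at or above the 90th percentile, with 3 at PMEPA1, 2 at SKI and 1 each at SMAD7 and TGIF1. Of the 51, 15 carry a pair of fold and q values that over 1000 peaks of the list share exactly, such as a fold of 4.97 for 3874 peaks, so that their order within the list is coarse. No LAP-Smad2 peak here carries such a pair.

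The overlap of the Smads at these genes was also close to that of the lists. Of the 15 LAP-Smad2 peaks, 3 overlapped a LAP-Smad3 peak, or 20.0% (7.05% to 45.2%), against 24.5% of all LAP-Smad2 peaks. Of the 51 LAP-Smad3 peaks, 3 overlapped a LAP-Smad2 peak, or 5.88% (2.02% to 15.9%), against 10.6% of all LAP-Smad3 peaks. Both intervals contain the share of the list.

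**Figure D5:**
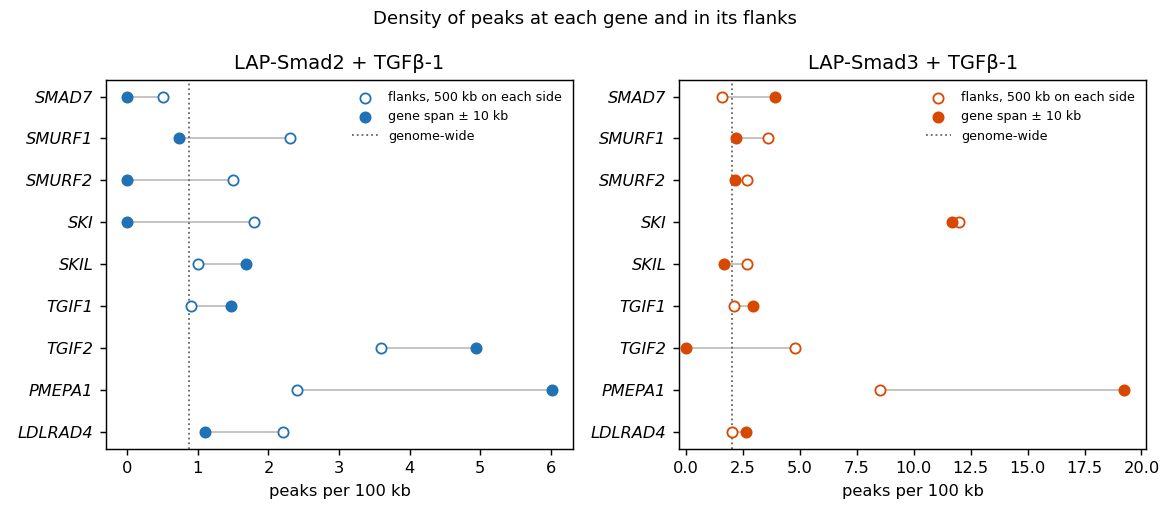
Peaks per 100 kb (x axis) in the span ± 10 kb of each gene (filled points) and in the 500 kb on each side of it (open points), for LAP-Smad2 (left) and LAP-Smad3 (right) after TGFβ-1, with the genome-wide density as a dotted line. PMEPA1 stands at 6.01 and 19.2, above its flanks at 2.40 and 8.50, while SKI has 11.7 LAP-Smad3 peaks beside 12.0 in its flanks.

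Seen by density, the genes ranged from 0 to 6.01 LAP-Smad2 peaks and from 0 to 19.2 LAP-Smad3 peaks per 100 kb. Their medians, 1.10 and 2.64, stand beside 0.746 and 2.42 for all protein-coding genes and 0.869 and 2.03 for the genome. SKI had 11.7 LAP-Smad3 peaks per 100 kb, and the region around it had 12.0. Its 12 peaks thus do not set it apart from its neighbourhood. TGIF2 had 4.94 LAP-Smad2 peaks per 100 kb where its flanks had 3.60, and its flanks had 4.80 LAP-Smad3 peaks per 100 kb, although the gene had none. For SMAD7 the LAP-Smad3 density was 3.91 in the gene and 1.60 in the flanks, from 2 peaks, of which 1 lies in repeated sequence.

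Some peaks could belong to other sequence or to other genes. Near-identical copies were found for 10 of the 51 LAP-Smad3 windows, of which 6 had over 1000 copies, and for 0 of the 15 LAP-Smad2 windows. Without them, the same 8 genes still had a LAP-Smad3 peak. Windows that only in part resemble repeated sequence, such as that of the LAP-Smad3 peak at SKIL, are not among those removed. A start of the gene itself was the nearest start of any annotated gene for 12 of the 15 LAP-Smad2 peaks and 38 of the 51 LAP-Smad3 peaks. Neither copies nor nearest starts were counted over the whole lists, so these counts have no background beside them. The peak lists hold no expression values, and nothing here says whether binding changed the RNA of any of these genes.

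Other genes of the pathway were counted by the same rule. Of 33 such genes, 16 (48.5%) had a LAP-Smad2 peak and 23 (69.7%) a LAP-Smad3 peak after TGFβ-1, beside 55.9% and 74.3% of all protein-coding genes. These shares were not matched for gene span and no interval was computed, so no shortfall is read from them. Among 8 ligand and receptor genes these were 5 and 5, among 5 further Smad genes 2 and 5, among 10 other negative regulators 4 and 5, and among 10 direct targets 5 and 8. SMAD2 and SMAD3 were left out because of the tagged copies. A site of both Smads was found at 4 of the 33 (12.1%, against 16.8% of protein-coding genes): TGFB1, the ligand itself, WWP1, a ubiquitin ligase, and CDKN1A and ID1, a cell cycle inhibitor and a helix-loop-helix inhibitor of differentiation. Before treatment, peaks were found at 4 of the 33 (12.1%) under the label LAP-Smad2 untreated, against 22.0% of protein-coding genes. Under the label LAP-Smad3 untreated they were found at 3 (9.09%), against 9.14%.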

How the data were processed

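ChIP-seq peak lists of 4 libraries (LAP-Smad2 and LAP-Smad3, untreated and after TGFβ-1) were analysed. Per the study's methods, the authors mapped the reads to hg38 by Bowtie2 and used MACS2 with a read extension to 200 bp and a q-value limit of 0.05, and 1 list per library was deposited. The fold enrichment deposited by the authors is a ratio of the pileup at the summit to the local background, and the p-value and q-value were deposited by the authors as −log10 values. The summit is the deposited offset. The control library and tool versions are not given in the sources used here. The depth per library is unknown, and no interval that needs it was computed. More reads give more peaks, so that counts are not comparable between lists.

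Counts, distances and shares were calculated in Python 3.11.15 (scipy 1.17.1, pysam 0.24.0, pandas 2.3.3, numpy 2.4.6). Gene spans and start sites came from GENCODE release 44, spans were widened by 10 kb, and an overlap of at least 1 bp counted. A site was near a start at up to 3 kb from any annotated start of its gene. Windows of 200 bp on the summit were read from hg38 and searched for 8 motifs. Near-identical copies (identity and coverage of at least 90%) were found with blastn 2.17.0, and tandem repeats by matching each window to itself shifted by 10 to 100 bases, with at least 80% of bases matching. Wilson intervals are at the 95% level, and a count of 0 allows up to 3 counts. No test between conditions was possible with single libraries. The functions passed 14 of 14 checks on simulated intervals.

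The 9 genes and the lists of other pathway genes were chosen with earlier results of these data known. All 9 genes are named. Peaks described singly are those with the highest −log10 q of each list at a gene, those within 3 kb of a start and those where the Smads overlap, and the other peaks are given by counts and ranges; the upstream sites at PMEPA1, the additional SMURF, SKI, SMAD7 and TGIF1 peaks and the untreated peaks were described after their values were seen. Windows that lie in untranslated exons are not shown as sequence. Groups follow the sample labels. Alternatives were other q-values, widenings, start sites, overlaps and windows, equally long lists and the removal of repeated windows.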

Additional observations from a re-analysis of the deposited data

How the results depend on the processing

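Under the alternatives, 64 recomputed values stayed within 1.5 times the main value or, for a motif share, within its interval, and 26 did not. The number of genes with a LAP-Smad3 peak stayed at 8 with a q-value under 0.01 and without repeated windows. The 3 LAP-Smad2 peaks that overlap a LAP-Smad3 peak, at 2 genes, also kept their count. This held with a mutual overlap of at least 50%, summits within 100 bp, a q-value under 0.01, no widening and without repeated windows. The removal of repeated windows took out those with a near-identical copy elsewhere. It therefore could not take out the shared LDLRAD4 site, which is itself a tandem repeat.

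With a q-value under 1e-05, 4 LAP-Smad2 peaks at 3 genes and 15 LAP-Smad3 peaks at 6 genes were left after TGFβ-1. The untreated lists then had 0 peaks at 0 genes. With spans widened by 50 kb, the treated lists had 28 (LAP-Smad2) and 87 (LAP-Smad3) peaks, at 8 and 9 of the genes, with 6 overlapping LAP-Smad2 peaks at 4 genes, and the untreated lists had 3 peaks at 3 genes (labelled LAP-Smad2) and 2 at 2 genes (labelled LAP-Smad3). With each list limited to its 3511 peaks of highest −log10 q, the length of the shortest list, 1 LAP-Smad3 peak at 1 gene and 0 LAP-Smad2 peaks at 0 genes were left after TGFβ-1, and 0 peaks at 0 genes in the library labelled LAP-Smad2 untreated. Removing repeated windows left 0 peaks at 0 genes in that library. LAP-Smad3 peaks near a start fell from 11 to 5 within 1 kb, to 7 with the starts of protein-coding transcripts and to 3 with the MANE Select start alone, which was chosen after seeing the data. With lists of equal length, the treated lists differed by 1 peak at the 9 genes, and so few peaks cannot show whether the Smads differ there. No paired analysis was possible because the labels give no replicate numbers that pair libraries, each treatment of each Smad line has a single library, and the Smad of the untreated libraries is in doubt.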
